A study of Mus musculus with 8 samples.

Results

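The genes described here are 79 mouse genes of antigen presentation and the interferon response, out of 18939 genes in a table of read counts. They were taken by their symbols alone: all H2 genes, the interferon regulatory factors (Irf), the Ifit, Ifitm, Ifi and Oas families, Stat2, B2m, Tap1, Tap2, Cd74, Isg15 and a few more. The choice reads the symbol and no measured value, though earlier results of these data were known when it was made. Where a gene had several transcripts, the one with the most counts stands for it.

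RNA bound to ribosomes was isolated by TRAP (translating ribosome affinity purification) from dissections aimed at the paraventricular nucleus of the thalamus (PVT), a midline nucleus with many neurons that carry the mu opioid receptor (MOR). All mice were OPRM1cre X EGFP-L10a on a C57Bl/6J background, 8 to 12 weeks old at the start, in which cells with Cre made from the Oprm1 gene tag their ribosomes with EGFP. Cre also marks a cell that used the gene earlier in life, and the dissection was a gross one. For 11 days the morphine mice were given 0.2% saccharin that held morphine, first at 0.3 mg/ml and at the end at 0.5 mg/ml, and the control mice had the saccharin only. Each library pooled dissections of 2 mice of 1 sex, with 4 libraries per group: control replicates 1 and 2 (male) and 5 and 6 (female), and morphine replicates 3 and 4 (male) and 7 and 8 (female). Values below are listed in that order.

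The control libraries held 37081348 to 43311793 counts and the morphine libraries 31151103 to 47582947, so that 1 count was worth 0.0206 to 0.0325 CPM (counts scaled to library size with TMM factors). Oprm1, the gene that drives Cre, had 463 to 1307 counts per library. Control replicate 5 is labelled female, but its CPM of Ddx3y, Eif2s3y, Kdm5d and Uty, all on the Y chromosome, were 28.7 to 35.8% of the mean of the male libraries. The comparison between the sexes and the interaction of sex with morphine are given with it and, by edgeR, without it. The morphine comparison with sex in the model is given only with it. Across all genes, edgeR called 37 genes between morphine and control (0.195%) at an adjusted P value under 0.05, of which 31 were higher and 6 lower.

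MHC class I molecules show peptides from inside the cell at its surface, on a heavy chain that pairs with beta-2 microglobulin, and class II molecules show peptides from engulfed proteins, mainly on immune cells. Interferons act through transcription factors such as Stat2 and Irf9, which bind a DNA element called the ISRE and turn on antiviral genes such as the Ifit and Oas families. In the brain, microglia and vessel cells carry much of this machinery, and most neurons hold little of it at rest.

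A sequence that interferon-responsive genes often carry is shown first, since it is found in part of the group. The ISRE core was searched on both strands as 2 GAAA half-sites with any 2 bases between them. The window ran from 250 bases before to 50 bases after the start site that the promoter set gives for each gene (RefSeq, GRCm38.p6). It was found in 15 of the 58 members with a promoter in the RefSeq set (25.9%) and in 1079 of all 27025 promoters (3.99%). The 15 were B2m, H2-T22, H2-T23, Ifi203, Ifit1, Ifit3, Ifitm2, Ifitm3, Irf2, Isg15, Oas1a, Oas1c, Oas1g, Oas3 and Stat2. Of these, 8 with values described below are printed here, 5′ to 3′ on the strand that reads GAAA, with the match in capitals.
B2m: aagaacatGAAACTGAAAatgggaaa
H2-T22: ggggattcGAAAGTGAAActaagcca
Irf2: ggggaagtGAAAATGAAAttgacttt
Stat2: agggaaagGAAACTGAAAccagggtg
Ifit1: agcagtgaGAAACTGAAActgagact
Oas3: agggaggaGAAAACGAAAgtgaaggg
Isg15: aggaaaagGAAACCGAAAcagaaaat
Ifi203: gagctgggGAAATCGAAAgctatgaa

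On GRCm38.p6 these windows lie at chr2:122147540-122147565 for B2m (plus strand, match 139 bases before the start), chr17:36042916-36042941 for H2-T22 (plus strand, 191 bases), chr8:46739496-46739521 for Irf2 (plus strand, 241 bases) and chr10:128270268-128270293 for Stat2 (minus strand, 222 bases). Those of Ifit1 (chr19:34640796-34640821, minus strand, 85 bases), Oas3 (chr5:120777717-120777742, minus strand, 75 bases), Isg15 (chr4:156200873-156200898, minus strand, 72 bases) and Ifi203 (chr1:173942510-173942535, minus strand, 35 bases) complete the set. Ifit1 holds 1 more match, and the match of Isg15 overlaps others, 3 in all. Distances are to the start site of the promoter set, which for some genes, such as Ifi203 (chr1:173920400-173942866, minus strand), lies inside the gene. A match is a description of letters and not evidence that a factor binds.

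Most members were low in the purified RNA. Their median level was 0.179 CPM against 9.62 CPM for all genes, and 21 of 79 (26.6%) had a mean of at least 1 CPM against 68.6% of all genes. Only 8 members reached 10 CPM, among them H2-Ke2, H2-Ke6, H2-T22, H2-T9, Irf2, Stat2 and Ifit2, where H2-T22 and H2-T9 rest on nearly the same reads. At the other end, 16 members had under 10 counts over all 8 libraries together, and 38 of 79 passed edgeR's filter on low counts. Summed over all members, the level was 223, 228, 215 and 206 CPM in the control libraries and 204, 209, 199 and 225 CPM in the morphine libraries, which overlapped.

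Levels between genes are compared per kilobase of transcript, for the 74 members with a length. H2-Ke2 led with 36.5 ± 4.64 CPM per kb (SD, n = 8), and none of its 8 values overlapped those of H2-Ke6, the next gene (13.3 ± 1.33). From there downward, B2m (10.2 ± 4.67), H2-T22 (8.85 ± 1.04) and Ifit2 followed, each overlapping its neighbour in range. The first 2 genes carry H2 names from their place in the MHC region and have no part in antigen presentation. H2-Ke2 is Pfdn6, a subunit of the prefoldin chaperone, and H2-Ke6 is a hydroxysteroid dehydrogenase of mitochondria.

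**Figure D1:**
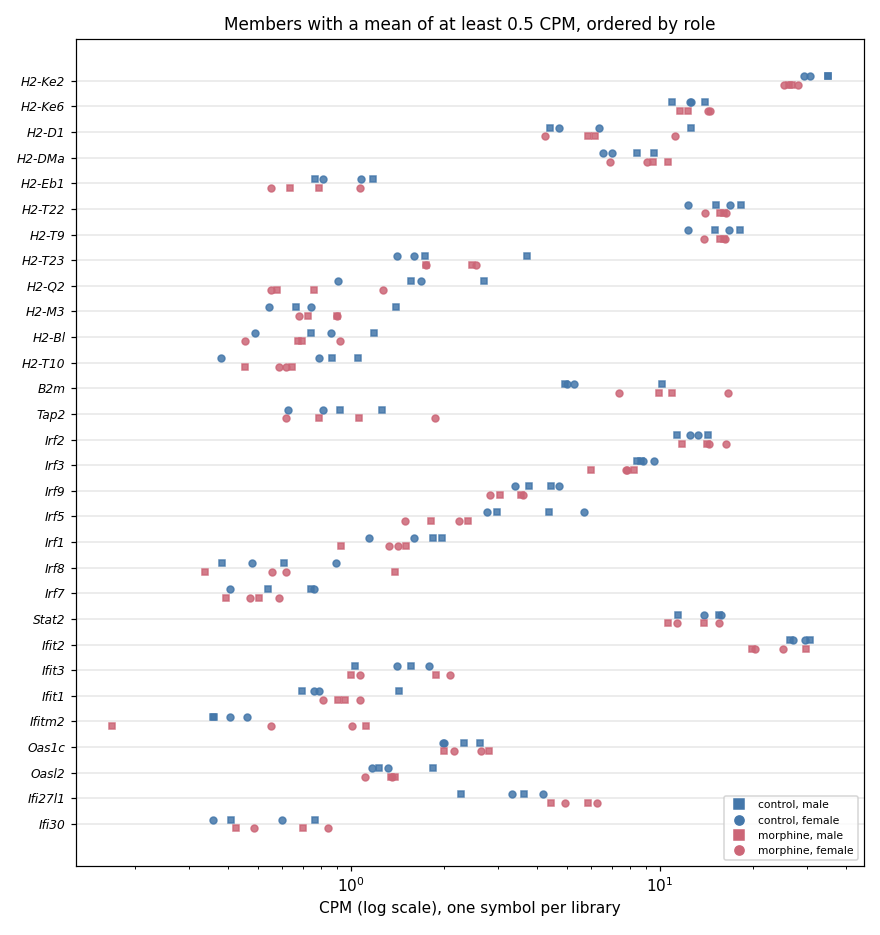
Level of each of 30 members with a mean of at least 0.5 CPM in each of the 8 libraries (CPM, log axis), ordered by role, with group shown by color and labelled sex by shape. The groups overlap for most genes, and H2-Ke2 and Ifit2 are among the highest.

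The main comparison asked which of these genes differed after chronic morphine. By edgeR, 0 of 79 members passed an adjusted P value of 0.05, where 0.195% of all genes did. At an unadjusted P value under 0.05, 7 members (8.86%) stood apart, against 12.1% of all genes. Of the 7, B2m, Ifi27l1 and Ifi203 were higher with morphine (3 members, against 6.79% of all genes), and Irf5, H2-Q2, H2-Ke2 and Oas3 were lower (4 members, against 5.31%). DESeq2, the tool of the study's own analysis, called 2 members, Irf5 as lower (adjusted P = 0.0190) and Ifi27l1 as higher (adjusted P = 0.0460), where it called 2.65% of all genes (0.94% lower and 1.71% higher). The 4 morphine values lay wholly above or below the 4 control values for 4 members (5.06%), namely Ifi27l1 above and H2-Ke2, Irf3 and Irf5 below, and for 6.54% of all genes (3.34% above and 3.21% below). The shares over all 79 members were thus near or below those of all genes, though many members had few counts. Of the 38 members that passed edgeR's filter on low counts, 13.2% had an unadjusted P value under 0.05. The groups did not overlap for 10.5% of the 38, above the 6.54% of all genes. The share without overlap among all genes that pass the filter was not computed. The median log2 fold change of the members was -0.045 (36 above 0 and 43 below), and that of all genes was 0.0088. In bulk RNA of this kind, fewer cells of a type and less RNA per cell cannot be told apart.

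**Figure D2:**
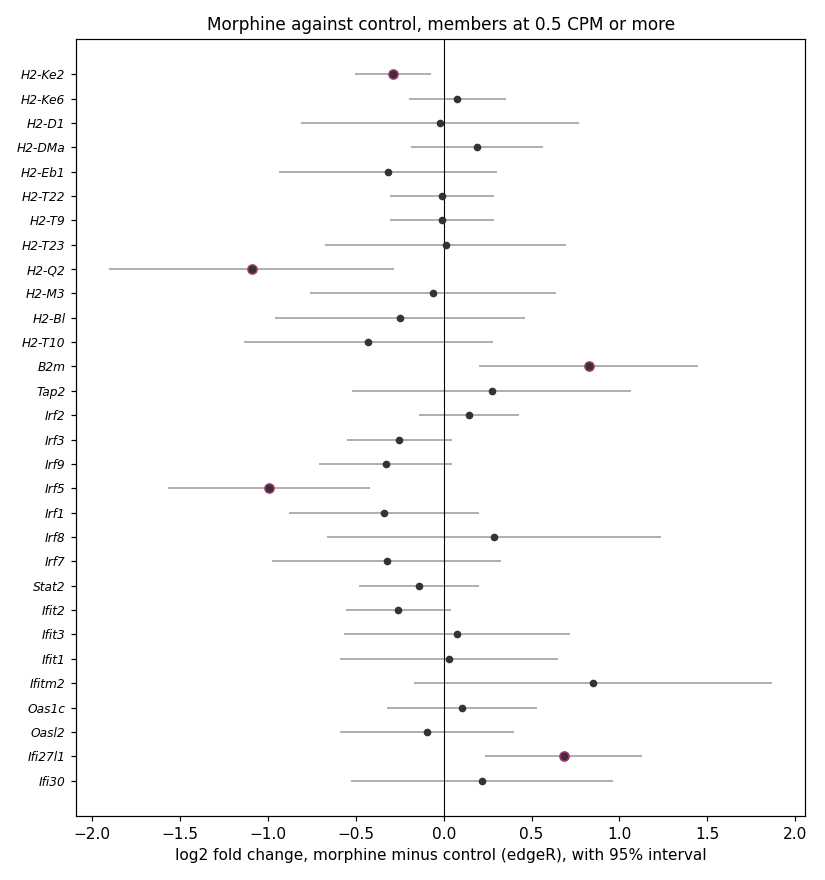
Log2 fold change of morphine over control with its 95% interval (edgeR) for 30 members with a mean of at least 0.5 CPM, with those at an unadjusted P value under 0.05 as purple dots. B2m and Ifi27l1 lie to the right, Irf5, H2-Q2 and H2-Ke2 lie to the left, and most intervals cross 0.

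Of the classical class I heavy chain genes H2-D1 and H2-K1, H2-D1 had the higher level per length (chr17:35263094-35267497). It was at 4.41, 12.6, 4.71 and 6.35 CPM in control and 5.87, 6.18, 4.25 and 11.2 CPM in morphine libraries. A single library in each group, control replicate 2 and morphine replicate 8, was well above the rest, and the groups overlapped with or without these libraries. A log2 fold change of -0.02 with a 95% interval from -0.81 to 0.77 was fitted, which became 0.42 without control replicate 2 and -0.37 without morphine replicate 8. H2-K1, the other main heavy chain, was much lower, with 9, 49, 8 and 12 counts in control and 11, 23, 6 and 43 counts in morphine libraries. Its 2 highest libraries were the same ones. H2-K2, a relative of H2-K1 that is listed as a non-coding transcript, had 4, 3, 2 and 3 counts in control and 9, 3, 4 and 7 counts in morphine libraries (edgeR adjusted P = 0.456).

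B2m makes the light chain that H2-D1 and H2-K1 need (chr2:122147687-122153082). It was at 4.92, 10.1, 5.02 and 5.29 CPM in control and 9.95, 11.0, 7.37 and 16.6 CPM in morphine libraries. Of the 4 morphine libraries, 2 were above every control library, and the other 2 were above all but control replicate 2. The means were 6.34 ± 2.53 and 11.2 ± 3.90 CPM (SD, n = 4 each), a log2 fold change of 0.83 ± 0.28 (SE) with a 95% interval from 0.20 to 1.45. This did not pass the adjustment over all genes (edgeR adjusted P = 0.277, DESeq2 adjusted P = 0.0927), and the exact two-sided permutation test gave P = 0.0857, where the smallest value 4 against 4 libraries allow is 0.0286. Without control replicate 2 the log2 fold change was 1.15, and without morphine replicate 8 it was 0.57.

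B2m and H2-D1 were also set side by side within each library, a comparison picked after their values had been seen and given with no test. B2m had 1.12, 0.805, 1.07 and 0.833 counts per count of H2-D1 in the control libraries and 1.69, 1.77, 1.73 and 1.48 in the morphine libraries. These 2 ranges did not overlap. The 2 libraries with the most H2-D1, control replicate 2 and morphine replicate 8, had the lowest ratio of their group (0.805 and 1.48). Against H2-K1, whose counts are few, the ratio of B2m was 21.3, 9.18, 26.3 and 16.3 in control and 32.2, 15.7, 37.8 and 18.8 in morphine libraries, which overlapped.

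**Figure D3:**
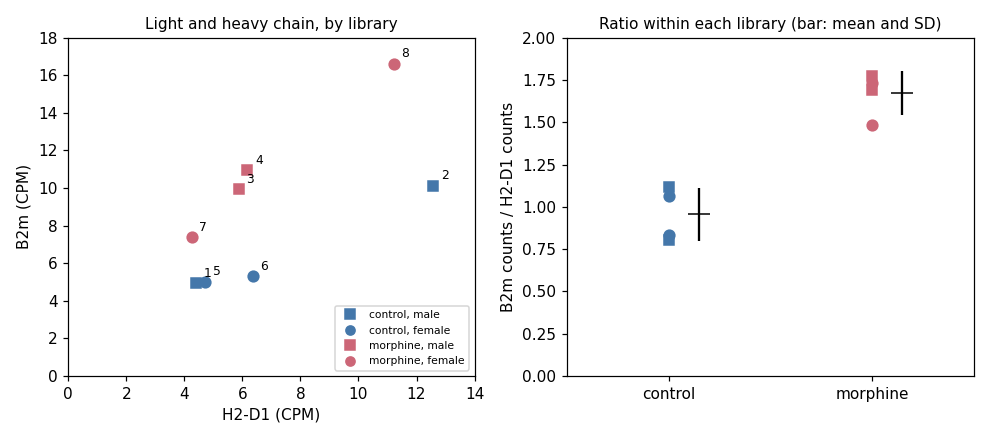
Left, CPM of B2m against CPM of H2-D1, with 1 symbol per library marked by its replicate number, group (color) and labelled sex (shape); right, the ratio of their counts in each library, with the group mean and SD in black. B2m per H2-D1 count is 0.805 to 1.12 in the control libraries and 1.48 to 1.77 in the morphine libraries, while H2-D1 itself overlaps between the groups.

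Tap1 and Tap2 form the pump that brings peptides to class I molecules. Tap1 was at 0.436, 0.473, 0.239 and 0.543 CPM in control and 0.337, 0.303, 0.422 and 0.555 CPM in morphine libraries. Tap2 ran from 0.624 to 1.26 CPM in control and from 0.617 to 1.87 CPM in morphine libraries. Both overlapped between the groups, with log2 fold changes of -0.04 (95% interval -0.80 to 0.72) and 0.27 (-0.52 to 1.07). The 2 highest libraries for Tap2 were again morphine replicate 8 and control replicate 2, here with morphine replicate 8 first.

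Those 2 libraries were also the highest for markers of microglia, endothelium and astrocytes, while for pericytes only control replicate 2 was. Control replicate 2 and morphine replicate 8 were the 2 deepest libraries as well, with 43311793 and 47582947 counts. The sum of 8 astrocyte markers was 536, 646, 557 and 588 CPM in control and 515, 557, 472 and 676 CPM in morphine libraries. The summed level of 11 microglial markers was 1.82, 7.45, 1.17 and 3.88 CPM in control and 2.61, 4.18, 2.66 and 4.30 CPM in morphine libraries, and none of the 11 had an unadjusted P value under 0.05. Morphine replicate 4 was close behind morphine replicate 8. The defining marker Cx3cr1 had 13, 55, 7 and 16 counts in control and 15, 20, 13 and 33 counts in morphine libraries, and Trem2 had 0 to 9. For 11 endothelial markers the sums were 5.64 to 15.7 CPM in control and 6.49 to 9.93 CPM in morphine libraries, with control replicate 2 highest and morphine replicate 8 next. For 7 pericyte markers the sums were 4.87, 13.2, 4.73 and 7.28 CPM in control and 6.24, 7.81, 5.94 and 7.19 CPM in morphine libraries, where morphine replicate 8 was within the range of the others. Of the endothelial markers 1, Emcn, was higher at an unadjusted P value under 0.05, with 1, 15, 7 and 4 counts in control and 18, 13, 12 and 19 counts in morphine libraries. Border macrophage markers (8 genes, of which F13a1 gave most of the sum) summed to 2.18 to 3.11 and 1.95 to 2.50 CPM, and 1, Cd163, was higher at that threshold, with 0, 6, 1 and 1 counts in control and 3, 13, 11 and 4 counts in morphine libraries. Of the lymphocyte markers, Cd3d, Cd3e and Cd3g had 0 to 2 counts in every library, but Cd4 had 73, 318, 244 and 84 counts in control and 58, 657, 586 and 6 counts in morphine libraries, an order that differs from that of the class I genes. The part of these cells, and of depth, in the class I levels was not tested.

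Choroid plexus RNA differed between the groups. The 13 markers of that tissue summed to 43.4 to 160 CPM in control and 216 to 678 CPM in morphine libraries, and 11 of the 13 were higher at an unadjusted P value under 0.05. By edgeR 0 of the 13 passed the adjustment, and DESeq2 called 7. Library by library, the sums were 43.4, 83.9, 89.4 and 160 CPM in control and 247, 418, 216 and 678 CPM in morphine libraries. B2m had the same order among the morphine libraries but not among the control libraries, where it was highest in replicate 2. Markers of telencephalic pyramidal neurons also differed. Of 13, 6 were higher and 2 lower at an unadjusted P value under 0.05, and edgeR called 1 and DESeq2 5 (4 higher and 1 lower). The gene called by edgeR, Bhlhe22, was at 22.4, 19.2, 24.3 and 30.4 CPM in control and 47.3, 57.3, 45.6 and 60.1 CPM in morphine libraries (log2 fold change 1.13, adjusted P = 0.0176). Neurod6 (1.51, 3.17, 2.08 and 13.7 CPM in control and 30.6, 53.0, 48.9 and 70.7 CPM in morphine libraries) and Neurod2 did not overlap between the groups either. The 2 lower markers were Cux2 and Rorb. Cux2 was at 130 ± 4.21 CPM in control and 104 ± 10.2 CPM in morphine libraries, without overlap (edgeR adjusted P = 0.188, DESeq2 adjusted P = 0.0450). Rorb was at 310 ± 59.1 and 220 ± 51.0 CPM, with overlap. The sums of the list, carried mostly by Camk2a, Nrn1 and Rorb, were 1599 to 2084 CPM in control and 1936 to 2804 CPM in morphine libraries and overlapped. The part of these tissues in the levels of B2m and Ifi27l1 was not tested. Astrocyte markers summed to 536 to 646 and 472 to 676 CPM, and ependymal markers to 4.87 to 6.93 and 5.40 to 11.7 CPM, both overlapping. The astrocyte sum was carried mostly by Slc1a2 and Aldoc. Gene by gene, the fitted log2 fold change was positive for 8 of 8 oligodendrocyte markers (0.22 to 0.91, none at an unadjusted P value under 0.05, with overlapping sums of 121 to 1220 and 566 to 1523 CPM), and for 6 of 8 astrocyte and 6 of 7 ependymal markers, with 1 of each, Sox9 and Dynlrb2, higher at an unadjusted P value under 0.05.

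**Figure D4:**
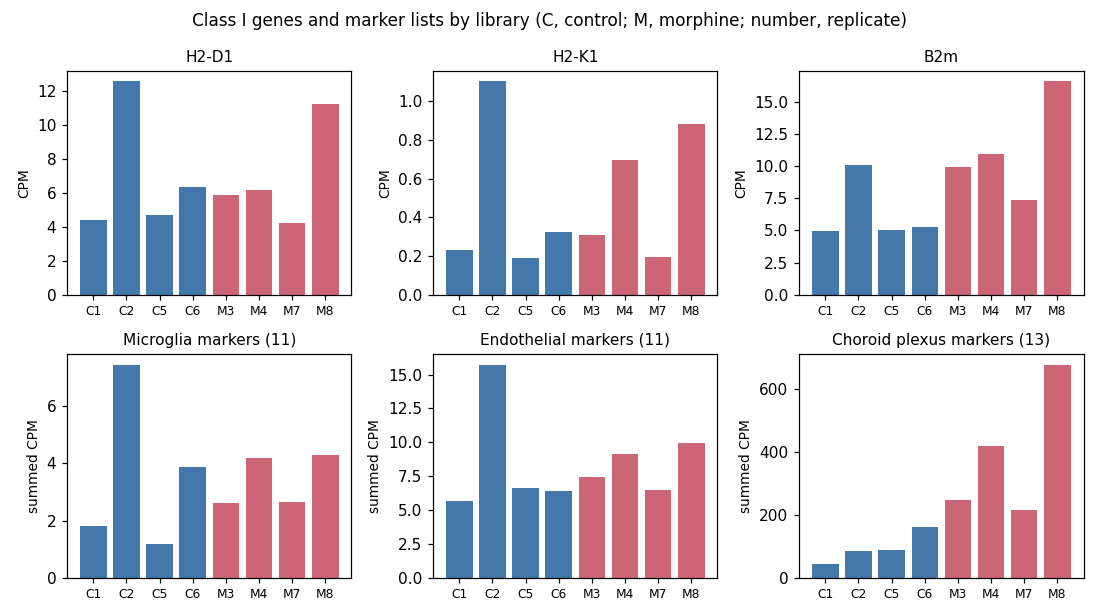
Bars give the CPM of H2-D1, H2-K1 and B2m (top) and the summed CPM of the microglial, endothelial and choroid plexus marker lists (bottom) in each library (C, control, blue; M, morphine, red). Control replicate 2 and morphine replicate 8 are the highest for H2-D1, H2-K1 and both the microglial and endothelial sums, while all 4 morphine libraries are above the control libraries for the choroid plexus sum.

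Among the 20 nonclassical class I genes, H2-T22, a ligand of gamma-delta T cells, was the most abundant (chr17:36037128-36042742). It was at 15.2, 18.3, 16.8 and 12.3 CPM in control and 15.7, 16.1, 14 and 16.3 CPM in morphine libraries. The groups overlapped closely, with a log2 fold change of -0.01 and a 95% interval from -0.31 to 0.28. H2-T9 carried nearly the same reads, 4857 counts in all against 4875 for H2-T22, so the 2 genes cannot be told apart and count as a single measurement. In the same way H2-Q6 equalled H2-Q8 (7 counts in all) and H2-Q7 equalled H2-Q9 (26 counts) in every library. H2-T23, the Qa-1 molecule read by natural killer cells, had 59 to 165 counts in control and 54 to 124 counts in morphine libraries.

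H2-Q2 (chr17:35342307-35346764) was the nonclassical gene with the lowest P value. It was at 1.56, 2.70, 0.909 and 1.68 CPM in control and 0.759, 0.575, 0.552 and 1.27 CPM in morphine libraries. All morphine libraries except replicate 8 were below every control library. The log2 fold change was -1.09 ± 0.37 (SE), which did not pass the adjustment (edgeR adjusted P = 0.265, DESeq2 adjusted P = 0.112). H2-Q2 belongs to a family of near copies, and it is unclear how reads they share were counted in the deposited table, so its counts are uncertain. H2-Q1, its neighbour, had 0, 2, 0 and 0 counts in control and 4, 2, 1 and 2 counts in morphine libraries. H2-M3, which shows formylated peptides, H2-Bl and H2-T10 had 14 to 62 counts per library, H2-M5 had 3 to 10, and H2-Q4, H2-Q10 and H2-T24 had 0 to 8. H2-M1, H2-M10.2, H2-M10.4 and H2-M11 were at 0 to 2 counts in every library.

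Class II genes were close to absent. H2-Aa and H2-Ab1, the chains of the main class II molecule, had 0 to 5 counts per library, H2-Eb2 had 0 to 7, H2-Oa had 0 to 2, and H2-Ob had 0 to 1. Cd74, the invariant chain that escorts class II molecules, had 3, 22, 9 and 11 counts in control and 8, 9, 7 and 23 counts in morphine libraries. Its 2 highest libraries were again control replicate 2 and morphine replicate 8. H2-Eb1 was a little higher, with 46, 34, 45 and 30 counts in control and 28, 21, 17 and 52 counts in morphine libraries (log2 fold change -0.32, edgeR adjusted P = 0.677).

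H2-DMa, which loads peptides on class II molecules, was the exception in level (chr17:34119693-34139101). It was at 8.43, 9.54, 6.55 and 7.00 CPM in control and 9.50, 10.6, 9.06 and 6.89 CPM in morphine libraries. Its partner chains H2-DMb1 and H2-DMb2 had only 2 to 9 and 0 to 12 counts. H2-DMa overlaps Brd2, a chromatin reader at 272 ± 12 CPM in control and 272 ± 5.01 CPM in morphine libraries, and reads of the 2 genes may not be separated.

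Of the 9 interferon regulatory factors, 7 had a log2 fold change below 0 and 2 above. Irf5, a factor that turns on inflammatory cytokine genes, had the lowest P value of all 79 members (chr6:29526130-29541869). It was at 4.38, 2.97, 2.75 and 5.70 CPM in control and 2.39, 1.82, 2.24 and 1.5 CPM in morphine libraries. Each morphine library was below each control library. The means were 3.95 ± 1.37 and 1.99 ± 0.405 CPM (SD, n = 4 each), a log2 fold change of -0.99 ± 0.26 (SE) with a 95% interval from -1.57 to -0.42. By edgeR this did not pass the adjustment over all genes (adjusted P = 0.159), by DESeq2 it did (adjusted P = 0.0190), and the exact permutation test gave the smallest value the design allows, P = 0.0286. Leaving out any 1 library kept the log2 fold change between -1.15 and -0.79.

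The gene overlaps Tnpo3, a nuclear import receptor, which was at 145 ± 15.4 CPM in control and 148 ± 12.6 CPM in morphine libraries (log2 fold change 0.03, edgeR adjusted P = 0.941). Among 9 markers of PVT and MOR neurons, Oprm1 was at 32.3, 29.4, 16.8 and 22.7 CPM in control and 15.9, 14, 17.6 and 18.4 CPM in morphine libraries. The Oprm1 groups overlapped, with 2 morphine libraries below every control library (log2 fold change -0.62, edgeR adjusted P = 0.207, unadjusted P under 0.05). At that unadjusted threshold 1 other marker, Cck, was higher, without overlap (edgeR adjusted P = 0.0735, DESeq2 adjusted P = 0.000803). The sum of the list overlapped (4538 to 5281 and 4463 to 5410 CPM). Snap25, at means of 3603 and 3740 CPM, carried most of it, so the sum says little about the other markers. The part of these neurons in the level of Irf5 was not tested.

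Irf3, which is activated when a cell senses viral nucleic acids, was at 8.72, 8.42, 9.56 and 8.85 CPM in control and 5.99, 8.23, 7.76 and 7.85 CPM in morphine libraries. The groups did not overlap (exact permutation P = 0.0286), but the gap was narrow and the fit gave a log2 fold change of -0.25 ± 0.14 (SE) with edgeR adjusted P = 0.506. Irf9, the DNA-binding partner of Stat2, was at 4.46, 3.76, 3.40 and 4.72 CPM in control and 3.04, 3.54, 3.60 and 2.82 CPM in morphine libraries. These overlapped, with a log2 fold change of -0.33 ± 0.17 (SE) and edgeR adjusted P = 0.488.

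Irf2, which opposes Irf1 on shared sites, was the most abundant factor of the family, at 11.4 to 14.3 CPM in control and 11.8 to 16.4 CPM in morphine libraries (log2 fold change 0.14, 95% interval -0.14 to 0.43). Irf1, an early target of interferon-gamma, was at 1.97, 1.85, 1.15 and 1.60 CPM in control and 0.928, 1.51, 1.33 and 1.42 CPM in morphine libraries, which overlapped (edgeR adjusted P = 0.626). Irf7 and Irf8, the latter a factor of microglia, had 13 to 33 and 12 to 46 counts per library, and Irf4 had 4 to 20.

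Stat2, which helps carry the interferon signal to the nucleus, was among the best measured members. It was at 15.6, 11.5, 15.8 and 13.8 CPM in control and 10.6, 13.9, 15.5 and 11.4 CPM in morphine libraries. The groups overlapped, and the 95% interval of the log2 fold change of -0.14 ran from -0.48 to 0.20.

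The Ifit genes encode proteins that bind foreign RNA. Ifit2 was by far the highest of the 3, at 30.7, 26.4, 29.5 and 26.9 CPM in control and 29.6, 19.9, 20.3 and 25.0 CPM in morphine libraries. Of its morphine libraries 3 lay below every control library, and morphine replicate 3 lay among them (log2 fold change -0.26 ± 0.14 SE, edgeR adjusted P = 0.491). Ifit3, whose promoter holds the ISRE core as that of Ifit1 does, was at 1.04 to 1.79 CPM in control and 0.999 to 2.10 CPM in morphine libraries. Ifit1 had 28 to 56 counts in control and 25 to 52 in morphine libraries. Ifit2 itself held no ISRE core in its window.

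Of the 5 Ifitm genes, which block virus entry, Ifitm2 was the highest, at 0.359, 0.360, 0.406 and 0.462 CPM in control and 0.169, 1.12, 0.552 and 1.01 CPM in morphine libraries. Its morphine values spread to both sides of the control values (log2 fold change 0.85 ± 0.46 SE, edgeR adjusted P = 0.509). Ifitm3 had 3, 18, 5 and 10 counts in control and 6, 13, 9 and 7 counts in morphine libraries. Ifitm6 and Ifitm1 had 3 to 10 and 0 to 11 counts per library, and Ifitm5 had 1 count in all.

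The Oas genes make synthetases that sense double-stranded RNA, and of the 12 only Oas1c and Oasl2 exceeded 1 CPM. Oas1c was at 1.98 to 2.62 CPM in control and 2.00 to 2.81 CPM in morphine libraries, and Oasl2 at 1.17 to 1.85 and 1.11 to 1.39 CPM. Oas3 (chr5:120753098-120777684) had 19, 9, 7 and 12 counts in control and 7, 3, 2 and 4 counts in morphine libraries. Only morphine replicate 3 reached the lowest control count, and the log2 fold change of -1.41 ± 0.51 (SE) did not pass the adjustment (edgeR adjusted P = 0.299). Oas1a, Oas2, Oasl1 and the Oas1d to Oas1h genes had at most 4 counts in any library, and Oas1b had 2 to 10.

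Ifi27l1, now named Ifi27 (chr12:103434189-103440245), encodes a small protein of mitochondria. It was at 2.28, 3.62, 3.32 and 4.18 CPM in control and 4.44, 5.87, 4.94 and 6.25 CPM in morphine libraries. Each morphine library was above each control library. The means were 3.35 ± 0.797 and 5.37 ± 0.832 CPM (SD, n = 4 each), a log2 fold change of 0.68 ± 0.20 (SE) with a 95% interval from 0.23 to 1.13. It did not pass by edgeR (adjusted P = 0.205) and passed by DESeq2 (adjusted P = 0.0460), and the exact permutation test gave P = 0.0286. Its overlapping relative Ifi27l2a had 1 to 14 counts in control and 3 to 11 in morphine libraries.

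Isg15, a ubiquitin-like tag and a standard reporter of interferon action, had 14, 8, 13 and 14 counts in control and 7, 10, 10 and 10 counts in morphine libraries. Its groups overlapped, with a log2 fold change of -0.26 and a 95% interval from -1.08 to 0.55. Ifi203, of a family of nucleic acid binding proteins with near copies, had 0, 1, 0 and 5 counts in control and 4, 22, 3 and 15 counts in morphine libraries. Morphine replicates 4 and 8 were above every control library, the other two overlapped with control replicate 6, and edgeR gave adjusted P = 0.248. Ifi30, a thiol reductase of lysosomes, was at 0.359 to 0.765 CPM in control and 0.424 to 0.843 CPM in morphine libraries. Ifi44 had 0, 2, 0 and 0 counts in control and 2, 3, 1 and 2 counts in morphine libraries, which is too few to read. Ifi35 had 7 to 20 counts per library, and Ifi47, Ifi27l2b and Ifi204 had 0 to 5.

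H2-Ke2 (Pfdn6, chr17:33938909-33940343), which only shares the H2 name, was at 34.9, 34.9, 30.5 and 29.2 CPM in control and 26.2, 26.9, 25.3 and 27.9 CPM in morphine libraries. Its groups did not overlap, and the log2 fold change was -0.29 ± 0.10 (SE), with edgeR adjusted P = 0.274 and DESeq2 adjusted P = 0.119. H2-Ke6 was at 11.0 to 14 and 11.6 to 14.5 CPM, which overlapped. Of the 7 members with an unadjusted P value under 0.05, 6 had a promoter in the RefSeq set, and 3 of these, B2m, Oas3 and Ifi203, hold the ISRE core printed above (15 of 58 among all members). Irf5, H2-Q2 and H2-Ke2 had a promoter without it, and Ifi27l1 was not in the set.

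The same pathways hold other genes that the symbols above do not reach, and 79 of a list of 82 were in the table. By edgeR 0 of these 79 passed the adjustment, 9 had an unadjusted P value under 0.05 (11.4%, against 12.1% of all genes), 5 of them higher and 4 lower, and DESeq2, which called 2.65% of all genes, called 3. The unadjusted share was near that of all genes. Their median log2 fold change was 0.033. By role, the unadjusted counts were 2 higher and 1 lower of 12 interferon receptor and signalling genes, 0 and 1 of 14 sensors, 2 and 2 of 36 interferon-stimulated genes, and 1 and 0 of 17 antigen processing genes.

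The 3 of these genes with the lowest P values had groups that did not overlap, which a choice by P value favours. This held for 6.33% of the 79 other pathway genes and for 6.54% of all genes. Slfn2, a gene needed for the quiescence of T cells, had 2, 5, 6 and 2 counts in control and 11, 13, 16 and 21 counts in morphine libraries (log2 fold change 2.13 ± 0.43 SE, edgeR adjusted P = 0.0732, DESeq2 adjusted P = 0.0181). Socs3, a feedback inhibitor of cytokine signalling, was at 1.87 ± 0.490 CPM in control and 0.924 ± 0.255 CPM in morphine libraries (log2 fold change -1.0, edgeR adjusted P = 0.168, DESeq2 adjusted P = 0.0382). Mavs, the adaptor of the RNA sensors on mitochondria, was at 7.86 ± 0.574 and 5.57 ± 0.683 CPM (log2 fold change -0.49, edgeR adjusted P = 0.185, DESeq2 adjusted P = 0.0309). None of the 3 passed the adjustment by edgeR, and all 3 passed it by DESeq2.

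The libraries were also compared by sex, in a fit that held condition too. By edgeR 0 of 79 members passed (0.00528% of all genes did), and 3 had an unadjusted P value under 0.05 (3.80%, against 3.1% of all genes). The 3 were H2-DMa, H2-Q6 and H2-Q8, of which the last pair is a single measurement, so that 2 separate measurements stood apart, while DESeq2 called 0 members. H2-DMa was at 8.43, 9.54, 9.50 and 10.6 CPM in the male libraries and 6.55, 7.00, 9.06 and 6.89 CPM in the female libraries, with only 1 female library reaching the male range (log2 fold change of female over male -0.37 ± 0.14 SE, edgeR adjusted P = 1.00). Without control replicate 5 the log2 fold change was -0.36, and H2-DMa was the 1 member left with an unadjusted P value under 0.05, where 2.63% of all genes had one, and H2-Q6 and H2-Q8 no longer did. Markers of oligodendrocytes moved with sex as well, with 8 of 8 at an unadjusted P value under 0.05 and a median log2 fold change of female over male of 1.23 (4 of 8 and 1.01 without control replicate 5), and their part in the level of H2-DMa was not tested. H2-Q6 and H2-Q8 had 2, 4, 1 and 0 counts in male and 0 in female libraries. The effect of morphine was also compared between the sexes with an interaction term, for which 0 members had an adjusted or an unadjusted P value under 0.05 by edgeR, against 0% and 1.72% of all genes, and DESeq2 called 0 members. Without control replicate 5, 0 of 78 members tested had an unadjusted P value under 0.05 for this term, against 1.64% of all genes.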

How the data were processed

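The authors deposited whole-number read counts per RefSeq transcript for the 8 libraries, not normalized and not pooled (24488 transcripts of 18939 genes). The study's methods name Salmon, with import to gene level by tximport, for its own analysis, and the submitters' processing notes name DESeq2 and mm10. Whether the deposited counts, which are whole numbers per transcript, come from Salmon is unclear, and the use of strand is not given in the sources used here. Each of the 8 columns matched 1 sample, and 0 columns had none. The 79 members came from 98 transcripts, and 20 members overlap another gene.

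CPM and tests were computed here from those counts. The main test was the edgeR 4.0.16 quasi-likelihood test (R 4.3.3, TMM factors, condition only) on all genes, with Benjamini-Hochberg adjustment at 0.05, tested on simulated data first. Sex was tested with condition in the model. Exact two-sided permutation tests used log2(CPM + 0.5) over 70 arrangements. Alternatives were DESeq2 1.42.0, RLE factors, filterByExpr, sex in the model, limma-voom (limma 3.58.1), the sum over transcripts and each library left out. The interaction without control replicate 5 was added after the data had been seen. Genes were named by a rule: the 12 lowest P values for morphine, the 3 lowest for sex, the 2 highest means per role, B2m, Stat2, Irf1, Irf9, Isg15, Tap1, Tap2 and Cd74, and the 3 lowest P values of the other pathway genes; further members appear as ranges. The members and all lists, markers included, were chosen with earlier results of these data known. Promoters and coordinates are RefSeq on GRCm38.p6. A few genes are not reported here; they stay in the tests and in counts over all members, and are left out of the named genes, marker lists and figures. Libraries are pools of different mice by the labels. Read copies from PCR are not marked, so intervals do not treat reads as molecules. No sequencing batch is given. Figures were drawn with matplotlib 3.10.9.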

Additional observations from a re-analysis of the deposited data

Results flagged for a closer look

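In 58 sets of 4 libraries (1 gene in 1 group), 3 held a library far from the other 3 by Dixon's criterion (the gap to the next library as a share of the whole range, at the 95% level). Chance gives about 1 in 20. B2m was at 10.13 CPM in control replicate 2 and at 4.923 to 5.294 CPM in the other control libraries. H2-K1 was at 1.103 CPM in control replicate 2 and at 0.1913 to 0.3258 CPM in the others. Oasl2 was at 1.11 CPM in morphine replicate 8 and at 1.349 to 1.393 CPM in the other morphine libraries.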

How the results depend on the processing

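The number of members called between morphine and control was 0 by edgeR under every setting and by limma-voom, and 2 by DESeq2. Over all genes the count was 37, and it was 502 by DESeq2, 14 with filterByExpr, 110 with sex in the model, 23 by limma-voom, 22 with the sum over transcripts and 0 to 77 with each library left out. It was 0 without morphine replicate 4 (1696 genes at an unadjusted P value under 0.05) and without morphine replicate 8 (1664), 1 without control replicate 1, 20 without control replicate 5, 11 without morphine replicate 7 and 77 without control replicate 6 or morphine replicate 3. The cause was not tested. The median log2 fold change of the members was 0.0051 by limma-voom and -0.14 to 0.088 with each library left out, above 0 only without control replicate 2. Between the sexes, the 1 gene called became 21 by DESeq2, 0 with filterByExpr (505 at an unadjusted P value under 0.05), and 0 to 5 with each library left out (0 without morphine replicate 3, 5 without control replicate 5). The interaction had 0 genes by edgeR (325 at an unadjusted P value under 0.05) 4 by DESeq2, and 0 without control replicate 5 (309), a setting added after the data had been seen.

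The sign of 3 uncalled members changed by limma-voom: H2-D1 to 0.052, H2-T22 to 0.00065 and H2-T9 to 0.0015. With each library left out, the log2 fold change of 10 uncalled members crossed 0: Cd74 (-0.18 to 0.63), H2-D1 (-0.37 to 0.42), H2-K1 (-0.22 to 1.09), H2-T22 (-0.13 to 0.074), H2-T9 (-0.13 to 0.073), Ifit3 (-0.13 to 0.23), Ifitm3 (-0.16 to 0.65), Oasl2 (-0.19 to 0.054), Tap1 (-0.26 to 0.072) and Tap2 (-0.14 to 0.48). The other values of the 36 named members kept their direction and call, other than Irf5 and Ifi27l1, which DESeq2 called. No paired analysis was possible because the groups share no replicate numbers. With under 10 counts in all, 16 members are limited by counting error.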

Other observations

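A second element of these pathways, the GAS (interferon-gamma activated site), was searched as TTCNNNGAA on both strands of the same windows, which reads alike on both. It was found in 11 of 58 members (19.0%) and in 9.55% of all promoters: H2-DMb2, H2-M11, H2-M3, Ifi35, Ifit2, Ifitm3, Ifitm6, Irf1, Irf2, Irf8 and Oas1a. The match of Irf1 is printed with its flanks, the match in capitals, from chr11:53769916-53769940 (plus strand, GRCm38.p6, 90 bases before the start).
Irf1: agcctgatTTCCCCGAAatgatgag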
